A study of Mus musculus with 7 samples.

Results

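The genes described here encode the peroxisome, and they comprise 12 peroxins, which build and divide the organelle, and 24 enzymes and membrane transporters that work in or at it. They were chosen by symbol, and all 36 were present, each as a single row, among the 23847 rows of a table of gene expression in mouse ventricle. The samples were ventricular lysates of male mice labelled as 12 weeks of age. In 3 libraries the mice had undergone trans-aortic banding (TAB) at 8 weeks, in which a suture tied against a needle narrows the aorta and loads the left ventricle. In 4 libraries the mice had a Sham operation, in which the aorta was exposed and the suture was left untied. The labels name no strain, transgene or drug, and do not say whether each library came from 1 animal, so the p-values below measure the spread between these libraries. Values are FPKM, fragments per kilobase of transcript and per M (mega) mapped fragments, which allow levels to be compared between genes.

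Peroxisomes shorten very long, branched and some other fatty acids by beta-oxidation and alpha-oxidation, start the synthesis of ether lipids such as plasmalogens, and break down hydrogen peroxide with catalase. The organelle has no DNA. Its matrix enzymes are made in the cytosol and imported by peroxins, most by the receptor Pex5 through a signal at the C-terminus and a few by Pex7 through a signal near the N-terminus. In the heart most fatty acid is oxidised in mitochondria, and peroxisomes serve substrates that mitochondria handle poorly. Many peroxisomal genes are known in rodent liver as targets of PPAR-alpha, a nuclear receptor that binds DNA with RXR at direct repeats of a short element.

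The promoters of 28 of the 36 genes were matched by symbol in a RefSeq table (GRCm38.p6, which is mm10) of 32 windows for these genes, each reaching from 250 bases before to 50 bases after a gene's start. The direct repeat of nuclear receptor elements with a spacing of 1 base was found on neither strand of any of them, and 0.381% of all 32851 promoter windows held it. The extended element TNAAGGTCA, searched on both strands, was found in 0 of the 28 genes and in 1.28% of all windows. The single element AGGTCA, which lies within the extended one and was searched after the other motifs gave no match, was found in Cat, Phyh and Scp2, 3 of 28 genes, and in 16.3% of all windows. The 250 bases before the start of Phyh held 0 complete matches, so its match reaches into the 50 bases after the start. The 250 bases before the start are shown for Ech1, the gene with the largest fall, for Pex11a, the peroxin with the largest fall, and for Cat and Scp2, whose elements lie 204 and 109 bases before the start, with AGGTCA in capitals.
Ech1 promoter, chr7:28825088-28825337, plus strand: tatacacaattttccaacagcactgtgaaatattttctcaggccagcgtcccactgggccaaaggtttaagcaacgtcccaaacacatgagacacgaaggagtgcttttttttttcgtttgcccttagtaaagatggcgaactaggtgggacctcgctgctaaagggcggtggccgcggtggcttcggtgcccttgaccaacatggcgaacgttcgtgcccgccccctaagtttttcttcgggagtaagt
Pex11a promoter, chr7:79743132-79743381, minus strand: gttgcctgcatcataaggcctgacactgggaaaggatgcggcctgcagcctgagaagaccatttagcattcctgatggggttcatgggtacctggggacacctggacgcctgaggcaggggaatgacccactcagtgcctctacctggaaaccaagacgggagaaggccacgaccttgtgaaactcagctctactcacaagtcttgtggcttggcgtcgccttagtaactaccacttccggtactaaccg
Cat promoter, chr2:103485154-103485403, minus strand: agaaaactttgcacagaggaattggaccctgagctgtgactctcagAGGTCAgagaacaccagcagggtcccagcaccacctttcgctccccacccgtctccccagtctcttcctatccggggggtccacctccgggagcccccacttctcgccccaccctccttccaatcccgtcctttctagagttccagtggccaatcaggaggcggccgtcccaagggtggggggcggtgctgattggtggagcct
Scp2 promoter, chr4:108118548-108118797, minus strand: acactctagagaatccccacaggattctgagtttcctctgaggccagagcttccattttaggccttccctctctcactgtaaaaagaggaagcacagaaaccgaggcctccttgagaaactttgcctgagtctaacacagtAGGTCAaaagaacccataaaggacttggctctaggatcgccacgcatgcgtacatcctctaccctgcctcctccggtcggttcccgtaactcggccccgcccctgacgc
No capitals appear in the Ech1 and Pex11a sequences, which means only that these letters are not in these windows.

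Depth, as implied by the whole-fragment steps of low values, was estimated at 10.8 to 12.2 M fragments per library (63.7% to 71.4% of 67 to 80 low values lay within 5% of a whole number), so that 1 FPKM on a 2 kb transcript stood for 21.6 to 24.4 fragments. Each of the 36 genes passed the filter of at least 1 FPKM in at least 3 libraries. Over all 11601 tested genes 818 were lower in TAB (7.05%) and 1542 higher (13.3%) at a limma adjusted p under 0.05, and groups did not overlap in 31.1%. That split depends on scaling, with 1153 lower and 1151 higher after median-of-ratios rescaling and 1220 lower and 1056 higher after quantile normalization. Atrial markers were highest in Sham 2 and TAB 3 (mean log2 values of 6.39 and 6.49, against 3.31 to 5.31 in the other libraries), and results that rest on these libraries are also given without them. The tissue label was met, with Sham means of 5750 FPKM for Myh6, 8228 for Tnnt2 and 7312 for Tnni3, all cardiomyocyte genes.

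Peroxisomal genes fell or did not pass the test in TAB, and none rose. Of the 36 genes 10 were lower (7.05% of all tested genes were), 0 higher and 26 not called, so 10 were called in either direction (20.3% of all tested genes were). At an unadjusted p under 0.05 a further 3 had values below Sham and 2 above. The enzymes and transporters were lower in 8 of 24 and the peroxins in 2 of 12. Their median log2 fold changes were -0.10 and 0.02, beside 0.05 for all tested genes. The difference between the enzyme and peroxin medians was not tested. Groups did not overlap in 18 of the 36 genes (31.1% of all tested genes), and 16 of these were lower in TAB (11.2% of all tested genes). Rescaling moved all medians together. After median-of-ratios rescaling the medians were -0.15 for the enzymes, -0.02 for the peroxins and 0.0063 for all tested genes, and after quantile normalization they were -0.14, -0.05 and -0.01. Without both Sham 2 and TAB 3, 5 enzymes and transporters were lower, and over all genes 402 of 11416 were. With the atrial marker level as a covariate and every library kept, all 10 genes remained lower.

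In summed FPKM the enzymes and transporters came to 3132 ± 84.1 for Sham (SD over 4 libraries) and 2343 ± 70.2 for TAB (SD over 3), and the peroxins to 183 ± 1.78 and 183 ± 2.63. Ech1 alone made up 51.1% ± 0.919 of the enzyme sum in Sham and 43.2% ± 0.746 in TAB. Without Ech1 the enzyme sum was 1533 ± 19.6 and 1331 ± 22.5. The peroxin total stayed within 181 to 186 FPKM in every library, but it held shifts in both directions. Pex19 had a mean of 52.7 FPKM in Sham and 57.5 in TAB and was not called. Means of Pex7, Pex11a and Pex6 were 22.5, 12.2 and 13.5 FPKM in Sham and 19.4, 9.84 and 12.2 in TAB, with Pex6 not called.

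**Figure D1:**
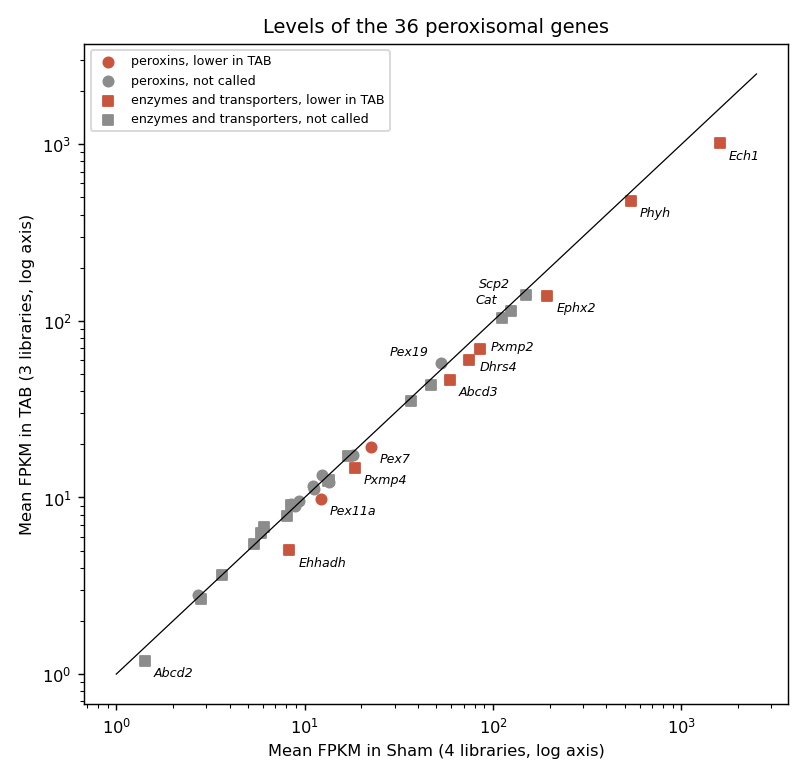
Mean FPKM of each of the 36 genes in TAB (vertical, log axis, 3 libraries) against Sham (horizontal, log axis, 4 libraries). Circles are peroxins and squares enzymes and transporters, red marks the 10 genes lower in TAB, and the line marks equal levels. Levels run from 1.42 FPKM for Abcd2 to 1600 for Ech1 in Sham, and the 26 grey genes lie close to the line.

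The peroxins that recognise cargo are Pex5 and Pex7. Pex7 is the receptor for the N-terminal signal carried by Phyh, Agps and the thiolases Acaa1a and Acaa1b. It was at 23.0, 21.6, 22.8 and 22.7 FPKM in Sham 1 to 4 and at 18.3, 20.02 and 19.9 FPKM in TAB 1 to 3. Every TAB library lay below every Sham library, and Pex7 fell by 0.20 ± 0.05 SE on the log2 scale of FPKM + 1 (limma adjusted p = 0.0213). The call was lost without Sham 1 (adjusted p = 0.0517), without TAB 1 (0.0949) and with the replicate number as a block (0.0808), with adjusted p from 0.0121 to 0.0949 over 19 alternatives. Pex5, the receptor for the C-terminal signal, was at 8.42 ± 0.853 FPKM in Sham and 9.18 ± 0.687 in TAB, and its groups overlapped (log2 fold change 0.11, 95% interval -0.06 to 0.29, limma adjusted p = 0.358). The log2 ratio of Pex7 to Pex5 within a library averaged 1.32 in the Sham libraries (SD 0.166) and 1.01 in the TAB libraries (SD 0.0349), without overlap. A two-sided exact permutation test gave p = 0.0571, or 0.08 adjusted over 7 ratios.

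Pex11a, which elongates the peroxisomal membrane before division and responds to PPAR-alpha in rodents, was at 12.7, 12.1, 12.9 and 11.2 FPKM in Sham 1 to 4 and at 9.62, 9.65 and 10.3 FPKM in TAB 1 to 3. The groups did not overlap, and it fell by 0.28 ± 0.06 SE (limma adjusted p = 0.0102), a call that held under all 19 alternatives.

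The remaining peroxins were not called. Pex13 and Pex14 form the docking site at the membrane, and their log2 fold changes were 0.03 and 0.05. Pex2 and Pex10, RING-type ubiquitin ligases that mark Pex5 for recycling, were at -0.06 and 0.01. Pex6, the ATPase that pulls Pex5 out, and Pex26, its membrane anchor, were at -0.13 and 0.04. For Pex6 the groups did not overlap (12.8 to 14.3 FPKM in Sham, 11.4 to 12.7 in TAB, adjusted p = 0.156). Pex3, Pex16 and Pex19 insert membrane proteins into the peroxisome. Pex19, the most abundant peroxin, was at 49.7 to 54.0 FPKM in Sham and 56.9 to 58.4 in TAB without overlap, yet its log2 fold change of 0.12 (95% interval 0.02 to 0.22) did not pass adjustment (adjusted p = 0.0783). Pex16 had a log2 fold change of 0.10 and Pex3 of -0.0037. The 95% intervals of these 9 genes and of Pex5 reached from -0.27 to 0.29 at most.

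**Figure D2:**
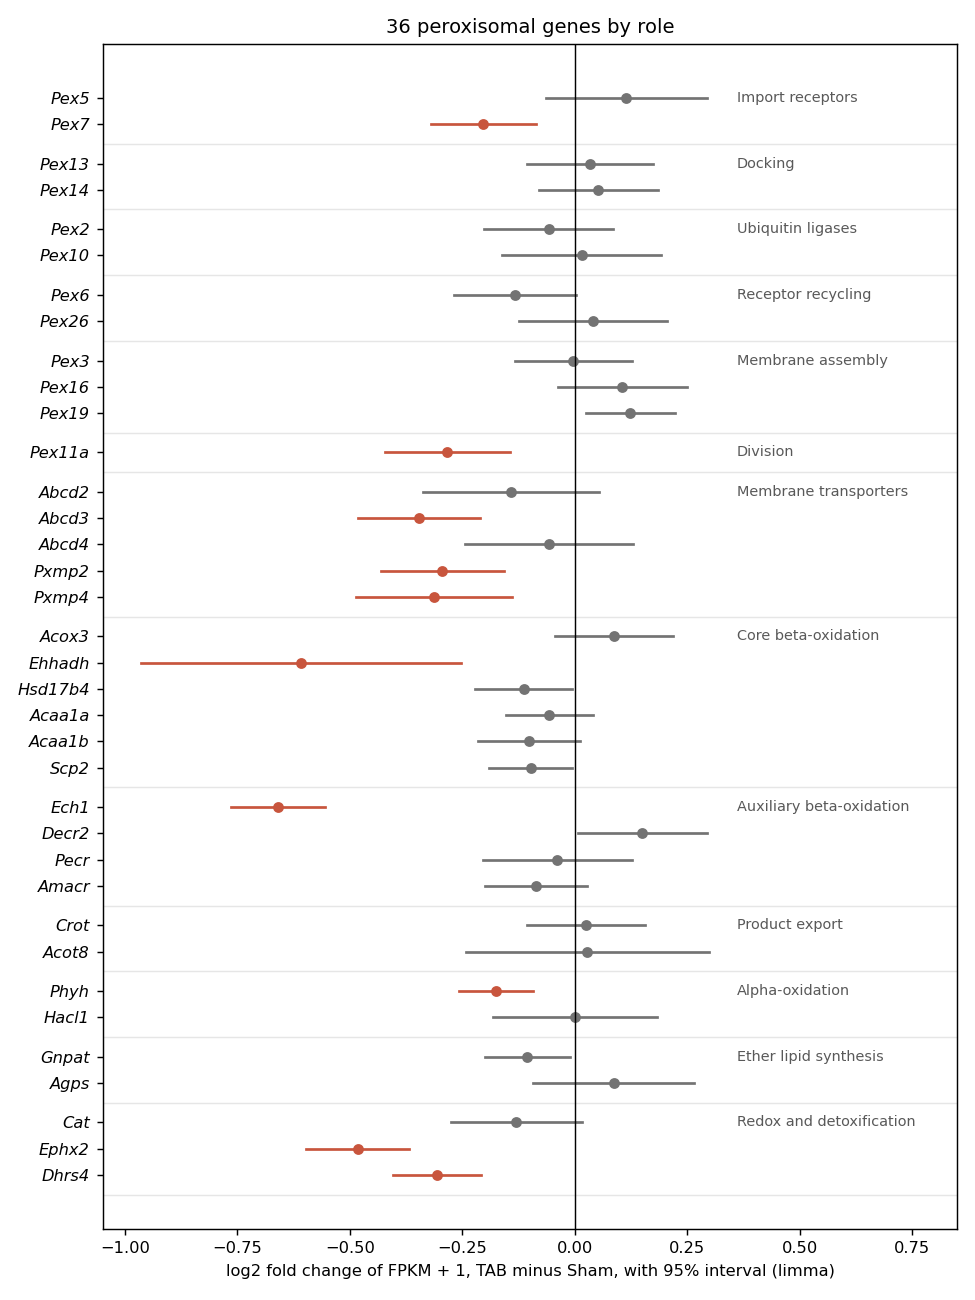
Log2 fold change of FPKM + 1 (TAB minus Sham, horizontal) with its 95% limma interval for each of the 36 genes, grouped by role from import receptors at the top to redox enzymes at the bottom. Red genes are lower at an adjusted p under 0.05. Peroxins other than Pex7 and Pex11a lie between -0.13 and 0.12, and the lowest values are those of Ech1 (-0.66) and Ehhadh (-0.61).

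Of 5 membrane proteins grouped here as transporters, 3 fell. Abcd3, the transporter subunit that brings branched and dicarboxylic acyl-CoAs into the peroxisome (chr3:121758910-121815215 in mm10), was at 62.1, 58.6, 61.5 and 54.1 FPKM in Sham 1 to 4 and at 46.6, 49.2 and 43.0 in TAB 1 to 3. It fell by 0.35 ± 0.06 SE (limma adjusted p = 0.00342), without overlap. The channel-forming protein Pxmp2 was at 81.0, 80.1, 84.5 and 94.1 FPKM in Sham and at 69.7, 72.5 and 64.8 in TAB, also without overlap, and fell by 0.29 ± 0.06 SE (limma adjusted p = 0.00817). Pxmp4 was at 17.0, 20.1, 18.3 and 18.6 FPKM in Sham and at 15.7, 15.6 and 12.9 in TAB, and fell by 0.31 ± 0.08 SE (limma adjusted p = 0.0180). TAB 3 gave its lowest value, and its call was lost without TAB 3 (adjusted p = 0.0644) and without both Sham 2 and TAB 3 (0.126, log2 fold change -0.19), in a range of 0.00831 to 0.126. Abcd2, a transporter of very long chain acyl-CoAs that is related to Abcd3, was low at 1.42 ± 0.115 FPKM in Sham and 1.19 ± 0.138 in TAB, and was not called (log2 fold change -0.14, adjusted p = 0.291). Abcd4, a family member better known for cobalamin transport in lysosomes, was at 2.83 ± 0.288 and 2.68 ± 0.212 FPKM (adjusted p = 0.684).

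In the core of beta-oxidation only Ehhadh passed the test, out of 6 genes. Ehhadh, the bifunctional enzyme that carries out the hydration and second oxidation of straight chains, was at 8.86, 7.95, 10.5 and 5.87 FPKM in Sham 1 to 4 and at 4.80, 5.71 and 4.54 in TAB 1 to 3. Sham 4 and TAB 2 nearly met, and mean FPKM fell by 39.6%. The fall of 0.61 ± 0.16 SE on the log2 scale (limma adjusted p = 0.0255) had the widest interval of the 36 genes (-0.96 to -0.25). Its call was lost when Sham 1, Sham 2, TAB 1 or TAB 3 was left out alone (0.0577 to 0.0993) and without both Sham 2 and TAB 3 (0.173, log2 fold change -0.56), and the adjusted p was 0.00187 to 0.173 over 19 alternatives. Hsd17b4, the bifunctional enzyme for branched and very long chains, was at 46.8 ± 1.42 FPKM in Sham and 43.1 ± 2.11 in TAB (log2 fold change -0.11, adjusted p = 0.127).

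Acox3, an oxidase of branched acyl-CoAs that makes hydrogen peroxide in the first step, was at 8.44 ± 0.404 FPKM in Sham and 9.03 ± 0.255 in TAB (log2 fold change 0.09, adjusted p = 0.343). The thiolases Acaa1a and Acaa1b perform the last step and are so alike in sequence that reads can be shared between them. Acaa1a was at 36.6 ± 0.533 and 35.2 ± 1.04 FPKM and Acaa1b at 13.4 ± 0.225 and 12.4 ± 0.215 FPKM, neither called (adjusted p = 0.400 and 0.187). Scp2, which encodes a sterol carrier and, from a longer transcript, the thiolase of branched chains, was at 149, 154, 151 and 144 FPKM in Sham and at 139, 136 and 144 in TAB. The lowest Sham library (144.0) and the highest TAB library (143.8) of Scp2 were almost equal. Its log2 fold change of -0.10 ± 0.04 SE was not called (adjusted p = 0.120) but was called lower after median-of-ratios rescaling (0.0291) and quantile normalization (0.018), in a range of 0.018 to 0.273. Hsd17b4 was likewise called lower after median-of-ratios rescaling (0.035, in a range of 0.035 to 0.522).

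The auxiliary enzymes of beta-oxidation prepare double bonds and branches for the core steps. Ech1, a dienoyl-CoA isomerase found in mitochondria as well as peroxisomes (chr7:28825338-28832239), was the most abundant of the 36 genes, at 1578, 1634, 1674 and 1514 FPKM in Sham 1 to 4 and at 1013, 1059 and 964 FPKM in TAB 1 to 3. The groups were far apart, and Ech1 fell by 0.66 ± 0.05 SE on the log2 scale, and its mean FPKM fell by 36.7% (limma adjusted p = 3.87e-05). Its log2 fold change was lower than that of all but 0.379% of the tested genes, and stayed between -0.75 and -0.62 over 19 alternatives. Because the protein works in both organelles, its transcript does not measure peroxisomes alone. Decr2, the peroxisomal dienoyl-CoA reductase, was at 5.75 to 6.44 FPKM in Sham and 6.70 to 7.03 in TAB, higher without overlap but not called (log2 fold change 0.15, 95% interval 0.01 to 0.29, adjusted p = 0.133). Pecr, a trans-enoyl-CoA reductase, was at 8.05 ± 0.305 and 7.83 ± 0.887 FPKM. Amacr, the racemase that lets branched chains enter the pathway, was at 13.5 ± 0.288 and 12.6 ± 0.291 FPKM, without overlap and not called (adjusted p = 0.271).

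Chain-shortened products leave as carnitine esters made by Crot or as free acids released by the thioesterase Acot8. Neither was called, with log2 fold changes of 0.02 (95% interval -0.11 to 0.16) and 0.03 (-0.24 to 0.30). Crot was at 17.0 ± 1.07 FPKM in Sham and 17.3 ± 0.336 in TAB, and Acot8 at 5.39 ± 0.976 and 5.47 ± 0.554.

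Alpha-oxidation removes 1 carbon from branched acids such as phytanic acid. Phyh, its hydroxylase and the second most abundant of the 36 genes, was at 537, 542, 527 and 547 FPKM in Sham 1 to 4 and at 473, 491 and 466 in TAB 1 to 3. It fell by 0.18 ± 0.04 SE, and its mean fell by 11.5% (limma adjusted p = 0.00792), without overlap. Without both Sham 2 and TAB 3 the call was lost (log2 fold change -0.16, adjusted p = 0.0641, in a range of 0.00205 to 0.0641). Hacl1, the lyase of the next step, was at 3.65 ± 0.282 FPKM in Sham and 3.65 ± 0.384 in TAB (95% interval -0.18 to 0.18). Gnpat and Agps, which begin ether lipid synthesis, differed in level, at 111 ± 3.61 and 5.86 ± 0.632 FPKM in Sham. Gnpat had a log2 fold change of -0.11 without overlap and was not called (adjusted p = 0.110; 0.0406 after median-of-ratios rescaling, in a range of 0.0406 to 0.322), and Agps of 0.09 (adjusted p = 0.501).

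Of 3 redox and detoxifying enzymes Ephx2 and Dhrs4 fell and Cat was not called. Ephx2, the soluble epoxide hydrolase that converts epoxy-fatty acids to diols in cytosol and peroxisomes (chr14:66084372-66124522), was at 182, 197, 209 and 187 FPKM in Sham and at 139, 141 and 134 in TAB. It fell by 0.48 ± 0.05 SE, and its mean fell by 28.7% (limma adjusted p = 0.000266). Dhrs4, a peroxisomal carbonyl and retinal reductase, was at 72.3, 77.6, 73.3 and 75.7 FPKM in Sham and at 59.0, 62.6 and 59.1 in TAB, and fell by 0.31 ± 0.04 SE (limma adjusted p = 0.00119). In both genes no TAB library reached the lowest Sham library. Cat, the enzyme that splits hydrogen peroxide, was at 116, 119, 143 and 122 FPKM in Sham and at 117, 111 and 113 in TAB. Sham 3 was high and the groups overlapped (log2 fold change -0.13 ± 0.07 SE, 95% interval -0.28 to 0.02, adjusted p = 0.194). Without Sham 3 the log2 fold change of Cat was -0.06 (adjusted p = 0.356). Red blood cells also hold much catalase. Of 4 tested erythroid markers 2 were higher in TAB (13.3% of all tested genes were). These were the globin gene Hba-a1 (181 ± 29.3 to 301 ± 42.5 FPKM, adjusted p = 0.0182) and Alas2 (7.34 ± 1.99 to 11.8 ± 1.95, adjusted p = 0.0491). The other 2 were not called, namely Hbb-bs (316 ± 85.6 to 403 ± 51.3, adjusted p = 0.335) and Hba-a2, a near-identical copy of Hba-a1 (adjusted p = 0.944). The erythroid markers summed to 390 to 607 FPKM in Sham and 662 to 819 in TAB, and their part in the value of Cat was not tested.

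**Figure D3:**
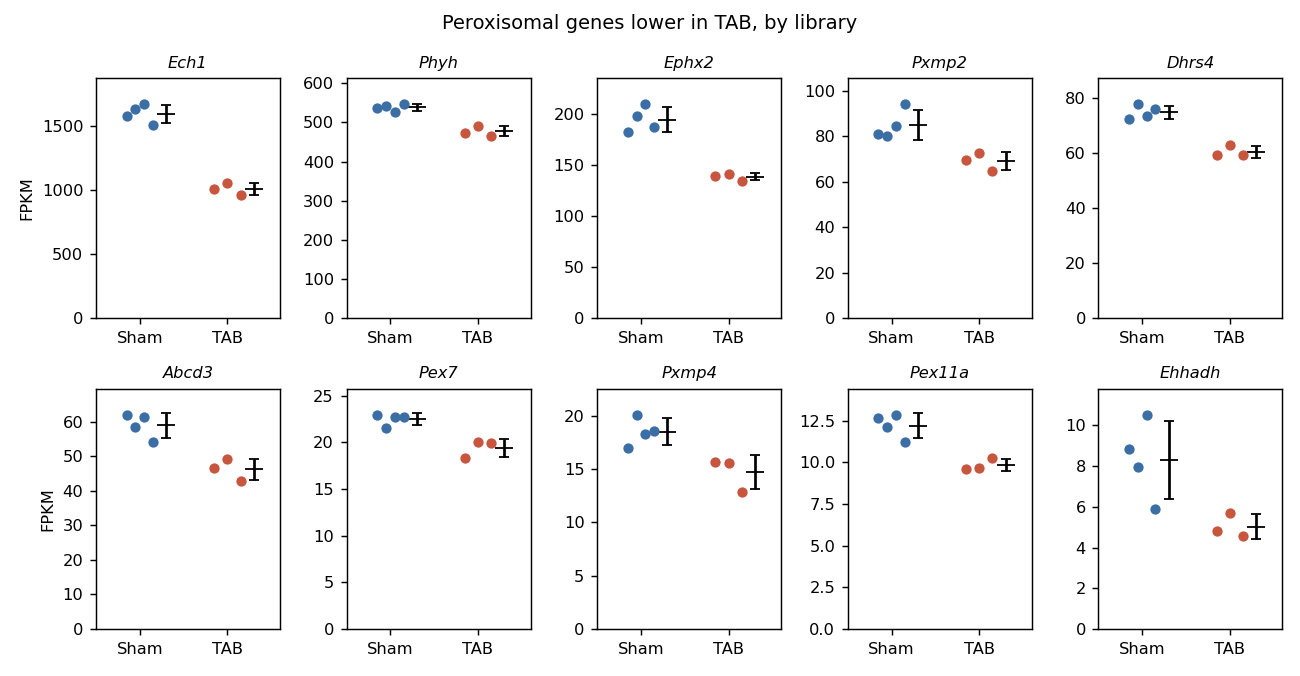
FPKM by library (points, vertical axes from 0) of the 10 genes lower in TAB, with the mean and SD (bars) beside each group, for 4 Sham (blue) and 3 TAB (red) libraries. No TAB library reaches a Sham library in any panel, and the gap is widest in Ech1 and narrowest in Ehhadh, where Sham 4 (5.87) and TAB 2 (5.71) nearly meet.

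Among the libraries, spread was small. The coefficient of variation of the 36 genes had a median of 6.01% in Sham and 4.28% in TAB, and was highest for Ehhadh in Sham (23.3%). In the 10 genes that fell, TAB 2 was the highest TAB library in 8 and TAB 3 the lowest in 7.

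For 6 steps a peroxisomal gene was set against its mitochondrial counterpart within each library, a ratio that scaling between libraries can hardly change. Acox3 stood at 1.23% of Acadvl, the very long chain acyl-CoA dehydrogenase, in Sham and at 1.62% in TAB. Acaa1a stood at 4.53% and 6.25% of the mitochondrial thiolase Acaa2, Decr2 at 2.83% and 4.44% of the mitochondrial reductase Decr1, and Crot at 10.7% and 14.6% of the carnitine acetyltransferase Crat, which also has a peroxisomal form. These 4 log2 ratios were higher in every TAB library than in any Sham library, by 0.38, 0.46, 0.62 and 0.45 (exact permutation p = 0.0286 each, two-sided, the smallest that 35 assignments give, p = 0.05 adjusted over 7 ratios, which is not under 0.05). The partners Acadvl, Acaa2, Decr1 and Crat fell, by 0.30, 0.52, 0.47 and 0.42 (limma adjusted p from 0.000173 for Decr1 to 0.000782 for Acadvl), while the peroxisomal partners were not called.

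For the remaining steps the groups overlapped and no test passed. Abcd3 stood at 20.95% of Cpt1b, which admits fatty acids to mitochondria, in Sham and at 18.6% in TAB, a log2 difference of -0.17 with overlap (exact permutation p = 0.0857, two-sided, adjusted p = 0.1). Ehhadh stood at 1.53% and 1.27% of Hadha, the mitochondrial trifunctional protein subunit, and the ratio differed by -0.15 with overlap (exact permutation p = 0.371, two-sided, adjusted p = 0.371). Both Cpt1b and Hadha fell, by 0.18 and 0.46 (limma adjusted p = 0.0214 and 0.000157), and Cpt1b lost its call under 4 alternatives, among them without TAB 1 (0.103) and without TAB 3 (0.072), with adjusted p from 0.00579 to 0.118.

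**Figure D4:**
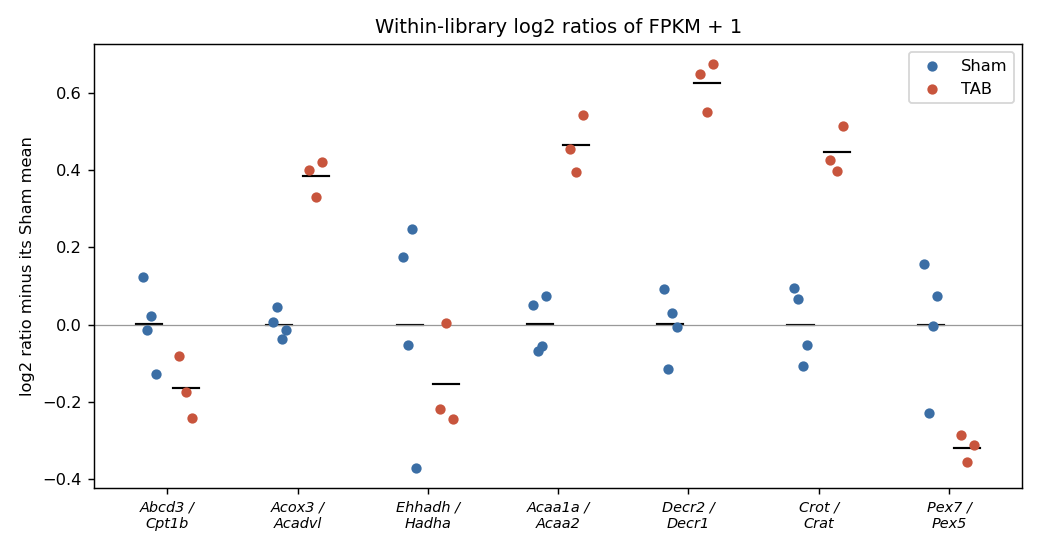
Log2 ratio of FPKM + 1 of each gene pair within a library, minus the Sham mean of that pair (vertical), for 4 Sham (blue) and 3 TAB (red) libraries, with group means as bars. The first 6 pairs set a peroxisomal gene over its mitochondrial counterpart, and the last sets the import receptors against each other. In Acox3/Acadvl, Acaa1a/Acaa2, Decr2/Decr1 and Crot/Crat all TAB points lie above all Sham points.

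Other peroxisomal genes, from a list of 39 enzymes and carriers, were lower in 9 of 26 tested (7.05% of all tested genes were). They were higher in 0 and not called in 17, and their log2 fold changes had a median of -0.15. The lowest adjusted p values belonged to Crat, the same gene that serves as the partner of Crot above, to Eci2, an enoyl-CoA isomerase (126 ± 4.07 to 107 ± 1.09 FPKM, adjusted p = 0.00326), to Gstk1, a glutathione transferase (90.0 ± 4.51 to 70.4 ± 6.10, adjusted p = 0.00344), and to Mpv17, an inner mitochondrial membrane protein also described in peroxisomes (43.4 ± 0.511 to 36.5 ± 1.66, adjusted p = 0.0046). Of 10 tested peroxins and division factors outside the 36, 1 was lower, near the share of 7.05% over all tested genes, and 0 were higher. The lower gene was Tmem135 (15.7 ± 1.23 to 13.2 ± 0.737 FPKM, limma adjusted p = 0.0429). Of 6 other ether lipid genes 0 were called in either direction at an adjusted p under 0.05 (20.3% of all tested genes were). At an unadjusted p under 0.05 there were also 0, and the median was 0.02.

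Genes that PPAR-alpha is known to control outside peroxisomes were lower in 14 of 17 tested (7.05% of all tested genes were). They were higher in 0, with a median of -0.39. Many of them are mitochondrial, and the smallest adjusted p values were those of Hadha, Acadm (892 ± 24.5 to 687 ± 7.17 FPKM), Hadhb (1441 ± 44.0 to 1131 ± 15.8) and Acadvl. Of 11 regulators of the PPAR, RXR, PGC-1 and ERR families 2 were lower (7.05% of all tested genes were). These were Rxrg, a partner of PPARs (43.2 ± 0.505 to 33.6 ± 0.994 FPKM, adjusted p = 0.000515), and the coactivator gene Ppargc1a (34.1 ± 1.54 to 26.0 ± 2.27, adjusted p = 0.00242). Ppara itself was at 18.6 ± 1.93 FPKM in Sham and 17.1 ± 0.498 in TAB and was not called (adjusted p = 0.354). The 11 regulators had a median log2 fold change of -0.22, beside 0.05 for all tested genes. Of the 11, 10 had log2 fold changes below 0, and over all tested genes 4478 of 11601 did.

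Cell markers moved beside these values. Fibroblast markers rose in 7 of 10 (13.3% of all tested genes did). Their sums were 850 to 966 FPKM in Sham and 1024 to 1223 in TAB. Smooth muscle and pericyte markers rose in 6 of 9 (258 to 268 and 296 to 334 FPKM) and macrophage markers in 3 of 9 tested (215 to 243 and 239 to 302 FPKM). Endothelial markers rose in 4 of 9, but their sums overlapped (1318 to 1857 and 1256 to 1490 FPKM). Fabp4 made up most of these endothelial sums (1240 ± 245 to 1119 ± 113 FPKM, limma adjusted p = 0.594). Fabp4, Kdr and Vwf had log2 fold changes below 0 (-0.13, -0.18 and -0.14) and were not called. Cardiomyocyte markers were lower in 4 of 8 (7.05% of all tested genes were) and higher in 1, with overlapping sums (50218 to 54464 and 48171 to 54250 FPKM). In bulk tissue fewer cells of a type and less RNA per cell cannot be told apart, and the part of cell makeup in the falls above was not tested. Liver and fat cells also hold many peroxisomes. The hepatocyte markers summed to 3.11 to 5.80 FPKM in Sham and 2.60 to 5.00 in TAB, 0 of 1 tested was called, Fgb and Apoc3 were listed at 0 in every library, and Alb was at 0.0409 FPKM at most. The fat cell markers summed to 22.1 to 31.3 FPKM in Sham and 31.4 to 33.2 in TAB, and 0 of 2 tested were called. Nearly all of that sum was Cidea, a lipid droplet protein, at 25.6 ± 3.78 FPKM in Sham and 31.2 ± 1.504 in TAB (adjusted p = 0.0655). Ucp1 was listed at 0 in every library and Adipoq reached 0.52 FPKM. The part of these markers in the falls above was not tested.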

How the data were processed

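The authors deposited 1 table of FPKM values. The submitters' processing notes name TopHat, Cufflinks and mm10. Tool versions, annotation, the strand setting and library scaling were not given in the sources used here. The labels' protocols state polyA enrichment and a stranded preparation. Columns were matched to samples by the column name in each sample's description, and groups come from the titles. The table's starts count from 0 and are given from 1.

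Values were transformed to log2(FPKM + 1), so that fold changes understate the change of low genes. The test, on rows with at least 1 FPKM in at least 3 of 7 libraries, was limma 3.58.1 under R 4.3.3 (eBayes with trend and robust, two-sided, no covariate), taking as called a Benjamini-Hochberg adjusted p (over 11601 rows) under 0.05. Ratios were compared with scipy 1.17.1 by exact permutation over 35 assignments. In simulated data for TAB against Sham over 11601 genes, 54% of genes changed 1.25-fold and 82% changed 1.5-fold were recovered, with 8 false calls. There 50 genes were changed at each fold, equally up and down and none at low levels, whereas 2360 were called in the data. Recovery in the real comparison can therefore differ.

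All 36 genes are named, with full values for those called and for the 5 with the highest mean FPKM. Of each other list the 4 called genes with the smallest adjusted p are named, or every called gene where 5 or fewer were called, and so are all genes of the ratios; marker lists are given by counts and sums, and the single markers named were chosen after their values were seen. The members, lists and tests were chosen with earlier results of these data known. For 4 list genes the table has an older symbol, found among RefSeq synonyms. Alternatives were pseudocounts of 0.1 and 0.5, no filter, a mean of at least 5 FPKM, 2 rescalings, plain eBayes, weighting of libraries, a block on replicate number, an atrial covariate, repeated symbols summed, and libraries left out. The promoter search for AGGTCA was added after seeing the data. A planned search for targeting signals in protein sequences was not run. Precision rests on counting error at low levels. As no counts were used, depth was estimated from the low values that lay within 5% of a whole number of fragments. The error of that estimate was not assessed.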

Additional observations from a re-analysis of the deposited data

Results flagged for a closer look

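Among the 36 genes, 3 had a Sham library that stood apart from the other 3, and chance flags about 1 in 20 such groups. Pex7 was at 21.56 FPKM in Sham 2 and at 22.74 to 22.96 in the others, Acot8 at 3.944 FPKM in Sham 2 and at 5.727 to 6.06 in the others, and Pecr at 8.506 FPKM in Sham 4 and at 7.871 to 7.928 in the others.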

How the results depend on the processing

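Of the 10 genes called, 6 (Ech1, Ephx2, Dhrs4, Abcd3, Pxmp2 and Pex11a) kept their call and direction under all 19 alternatives. Of the 12 peroxins 2 were lower, 1 to 2 with single libraries left out (1 without Sham 1 or without TAB 1) and 1 with the replicate block, which ended the call of Pex7 (adjusted p = 0.0808). Deviations of same-numbered libraries from their group means had correlations of 0.0807, 0.169 and 0.174. Without the correlations of differently numbered libraries beside them, these values cannot decide whether the numbers mark pairs. The numbers were not taken as pairs, and whether they mark a shared source is not given. Of the enzymes and transporters 8 were lower, 6 to 8 with single libraries left out and 5 without both Sham 2 and TAB 3. The median log2 fold change of peroxins was -0.01725 after median-of-ratios rescaling, -0.04746 after quantile normalization and -0.0007739 to 0.03814 with single libraries left out. The median log2 fold change of peroxisomal enzymes and transporters was -0.1475 and -0.1434 after these rescalings. The median over all tested genes moved too, from 0.04524 to 0.006275 and -0.01105. Some genes that were called in no fit changed sign, with log2 fold changes of -0.01099 for Acot8, -0.01835 for Crot, -0.0354 for Hacl1, -0.02635 for Pex10 and -0.008148 for Pex13 after median-of-ratios rescaling; -0.04245 for Acot8, -0.01768 for Crot, -0.07959 for Hacl1, -0.0446 for Pex10, -0.02959 for Pex13 and -0.05032 for Pex26 after quantile normalization; -0.006755 for Crot and -0.01948 for Hacl1 with the replicate block; 0.0408 for Abcd4, -0.1534 for Acot8, 0.02811 for Pecr, -0.003374 for Pex13 and 0.01373 for Pex2 without both Sham 2 and TAB 3. With single libraries left out their values ran from -0.09121 to 0.08909 for Acot8, -0.006755 to 0.05004 for Crot, -0.06489 to 0.04844 for Hacl1, -0.1081 to 0.03748 for Pecr, -0.04753 to 0.06715 for Pex10, -0.006679 to 0.0518 for Pex13 and -0.02092 to 0.03 for Pex3. The sign changes under the rescalings came with that shift of the whole table, and the cause of the others was not tested. Genes under 3 FPKM (Abcd2, Abcd4 and Pex26) rest on fewer fragments, which limits their precision.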
